A study of Homo sapiens with 22 samples.

Results

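Interferon-stimulated genes are the genes that a cell switches on when an interferon binds its receptor. Type I and type III interferons act through receptor-bound Janus kinases, which phosphorylate STAT proteins, and STAT2 joins a second STAT and IRF9 in a complex that binds the interferon-stimulated response element (ISRE) in the promoters of these genes. Their products detect and bind foreign RNA, block the entry or copying of viruses, attach the ubiquitin-like protein ISG15 to other proteins or signal to neighbouring cells, and many tumour lines keep some of them on without added interferon. The set described here holds 48 such genes of the 26485 gene symbols counted in each library, taken by symbol from a given list of names. It is made of 4 transcription factors (STAT2, IRF1, IRF7 and IRF9) and 44 effectors, and all 48 were present in the count tables.

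RNA was sequenced from 22 libraries, all labelled MDA-MB231 (a long-established cell line from a human triple-negative breast tumour), in 3 experiments on HDAC6, a mostly cytoplasmic deacetylase. In the first, wild-type cells given the vehicle DMSO and named Ctrl (n = 2) were compared with wild-type cells given the HDAC6 inhibitor Nexturastat A at 7.65 µM for 2 days (n = 2). In the second, cells carrying a control hairpin (shCtrl, called wild type in the labels), shHDAC6-1 or shHDAC6-2 (HDAC6 knockdown) were sampled at day 0 (n = 3 each). In the third, wild-type cells given DMSO, HPOB or Tubastatin A, 2 other HDAC6 inhibitors, were sampled at day 2 (n = 3 each). The sample names of the last group read TSA while its treatment label reads Tubastatin A, and the sources used here give no dose for HPOB or Tubastatin A, no hairpin vector and no word on whether the cells were pools or clones. Nothing says that replicates came from separate cultures, so p-values measure only the spread between these samples. In bulk RNA, a lower level in each cell and fewer cells that express a gene cannot be told apart.

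Libraries held 31.2 to 85.9 M counts (M, mega). Levels are in counts-per-million (CPM) of the library total, and fold changes and tests come from edgeR's quasi-likelihood test with Benjamini-Hochberg adjustment over all genes tested, a gene being called at an adjusted p under 0.05. The libraries did not form a single stock. In replicates 1 and 2 of the hairpin experiment the summed level of 9 basal B breast cancer markers was 1215 to 1303 CPM, against 6026 to 6195 CPM in Ctrl and 6099 to 6241 CPM in the DMSO libraries. CDKN2A, which is deleted in MDA-MB231, ranged from 140.4 to 184 CPM there and was at 0 in the Ctrl, DMSO and replicate 3 shCtrl libraries. Replicate 3 of the 2 HDAC6 hairpins held 7.11 and 24.1 CPM of CDKN2A. ESR1 and PGR, 2 of the 3 receptors scored as absent in a triple-negative line, were under 1 CPM in every library. The message of the third, ERBB2, was present, with means of 84.2 CPM in Ctrl, 99.6 CPM in DMSO and 66.4 CPM with shHDAC6-1 in replicates 1 and 2. The Ctrl and DMSO libraries differed too, with CD74 under 0.1 CPM in both Ctrl libraries and at 146 to 162 CPM in the DMSO ones. Replicates 1 and 2 of the hairpins were therefore tested together and replicate 3 was described apart, with 1 library per hairpin and no test. Cell stock and experiment cannot be told apart between Ctrl and DMSO, which share day 2. Between shCtrl, sampled at day 0, and either of them, day cannot be told apart from these as well.

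Promoters of 7 members are shown because the results below turn on these genes. Each sequence is the 160 bases before the gene's start (RefSeq, GRCh38.p14), 5′ to 3′ on the gene's strand, with matches to the ISRE core in capitals. The core was searched as GAAA, any 2 bases and GAAA again, and for the other strand as TTTC, any 2 bases and TTTC.
IFIT1 (chr10:89392463-89392622, plus strand): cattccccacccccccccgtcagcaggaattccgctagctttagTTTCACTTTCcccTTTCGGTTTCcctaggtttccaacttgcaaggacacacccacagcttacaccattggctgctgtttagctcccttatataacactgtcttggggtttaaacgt
IFIT3 (chr10:89327837-89327996, plus strand): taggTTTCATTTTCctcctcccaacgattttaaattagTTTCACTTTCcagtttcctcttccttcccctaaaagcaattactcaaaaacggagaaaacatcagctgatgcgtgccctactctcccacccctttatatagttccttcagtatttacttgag
IFIT5 (chr10:89414408-89414567, plus strand): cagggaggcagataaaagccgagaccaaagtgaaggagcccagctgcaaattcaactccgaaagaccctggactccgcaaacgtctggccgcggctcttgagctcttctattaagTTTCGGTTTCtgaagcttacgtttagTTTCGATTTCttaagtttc
BST2 (chr19:17405631-17405790, minus strand): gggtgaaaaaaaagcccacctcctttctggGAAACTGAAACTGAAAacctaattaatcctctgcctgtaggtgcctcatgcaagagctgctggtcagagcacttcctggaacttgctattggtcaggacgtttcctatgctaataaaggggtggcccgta
IFI6 (chr1:27672193-27672352, minus strand): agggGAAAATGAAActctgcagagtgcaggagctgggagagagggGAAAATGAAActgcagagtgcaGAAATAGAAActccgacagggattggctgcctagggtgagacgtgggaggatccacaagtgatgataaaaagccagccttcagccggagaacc
ISG15 (chr1:1013337-1013496, plus strand): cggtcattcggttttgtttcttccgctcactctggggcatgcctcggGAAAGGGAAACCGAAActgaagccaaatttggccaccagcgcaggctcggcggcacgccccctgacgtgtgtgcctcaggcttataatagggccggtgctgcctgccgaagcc
XAF1 (chr17:6755886-6756045, plus strand): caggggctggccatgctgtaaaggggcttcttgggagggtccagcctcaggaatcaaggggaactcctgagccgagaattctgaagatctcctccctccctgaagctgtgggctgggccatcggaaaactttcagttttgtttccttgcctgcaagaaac

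IFIT1 carried 2 cores, at 116 and 103 bases before the start, and IFIT3 carried 2, at 156 and 122 bases before it. BST2 and ISG15 each held an overlapping pair, at 130 and 124 bases and at 113 and 107 bases before the start. IFI6 held 3 cores, and IFIT5 held 2 in the stretch shown and 1 more that crosses its start. XAF1 held none in this window. Promoters from 250 bases before to 50 bases after the start were matched for 39 of the 48 members, and 26 of these (66.7%) held an ISRE core, against 1255 of 35116 promoters of the same length (3.57%). The gamma-activated site TTCNNNGAA, which reads the same on both strands, was found in 12 member promoters (30.8%) and in 7.66% of all promoters. It is bound by STAT dimers downstream of type II interferon. All 3 matched promoters of the IFIT class and all 3 of the IFITM and BST2 class held the ISRE core, as did 1 of 2 in the OAS class. Of the 3 matched transcription factors none held an ISRE core in the window, and IRF1 and IRF9 each held a gamma-activated site. A match is only a match of letters.

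The resting level of the set differed between the cell stocks. The median member stood at 22.8 CPM in Ctrl, 24.6 CPM in DMSO, 11.9 CPM in shCtrl replicates 1 and 2 and 18.3 CPM in shCtrl replicate 3. Summed over the 48 genes, the set took 2199 to 2218 CPM in Ctrl, 2479 to 2581 CPM in DMSO, 1181 to 1187 CPM in shCtrl replicates 1 and 2 and 1976 CPM in shCtrl replicate 3. Members at 10 CPM or more numbered 33, 37, 26 and 32 in that order. Shares of the highest and lowest levels were uneven. The DMSO stock had the highest mean of the 4 for 19 members, and shCtrl replicates 1 and 2 had the lowest for 24. Per kilobase of transcript, LGALS3BP, a secreted glycoprotein, was the highest member in all 4 stocks, from 143 CPM per kb in shCtrl replicates 1 and 2 to 277 CPM per kb in Ctrl. Interferon messages themselves were nearly absent: over 21 interferon genes, Ctrl held 0 counts in all, DMSO held 8 and shCtrl replicates 1 and 2 held 126, none of these genes reaching 1 CPM.

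**Figure D1:**
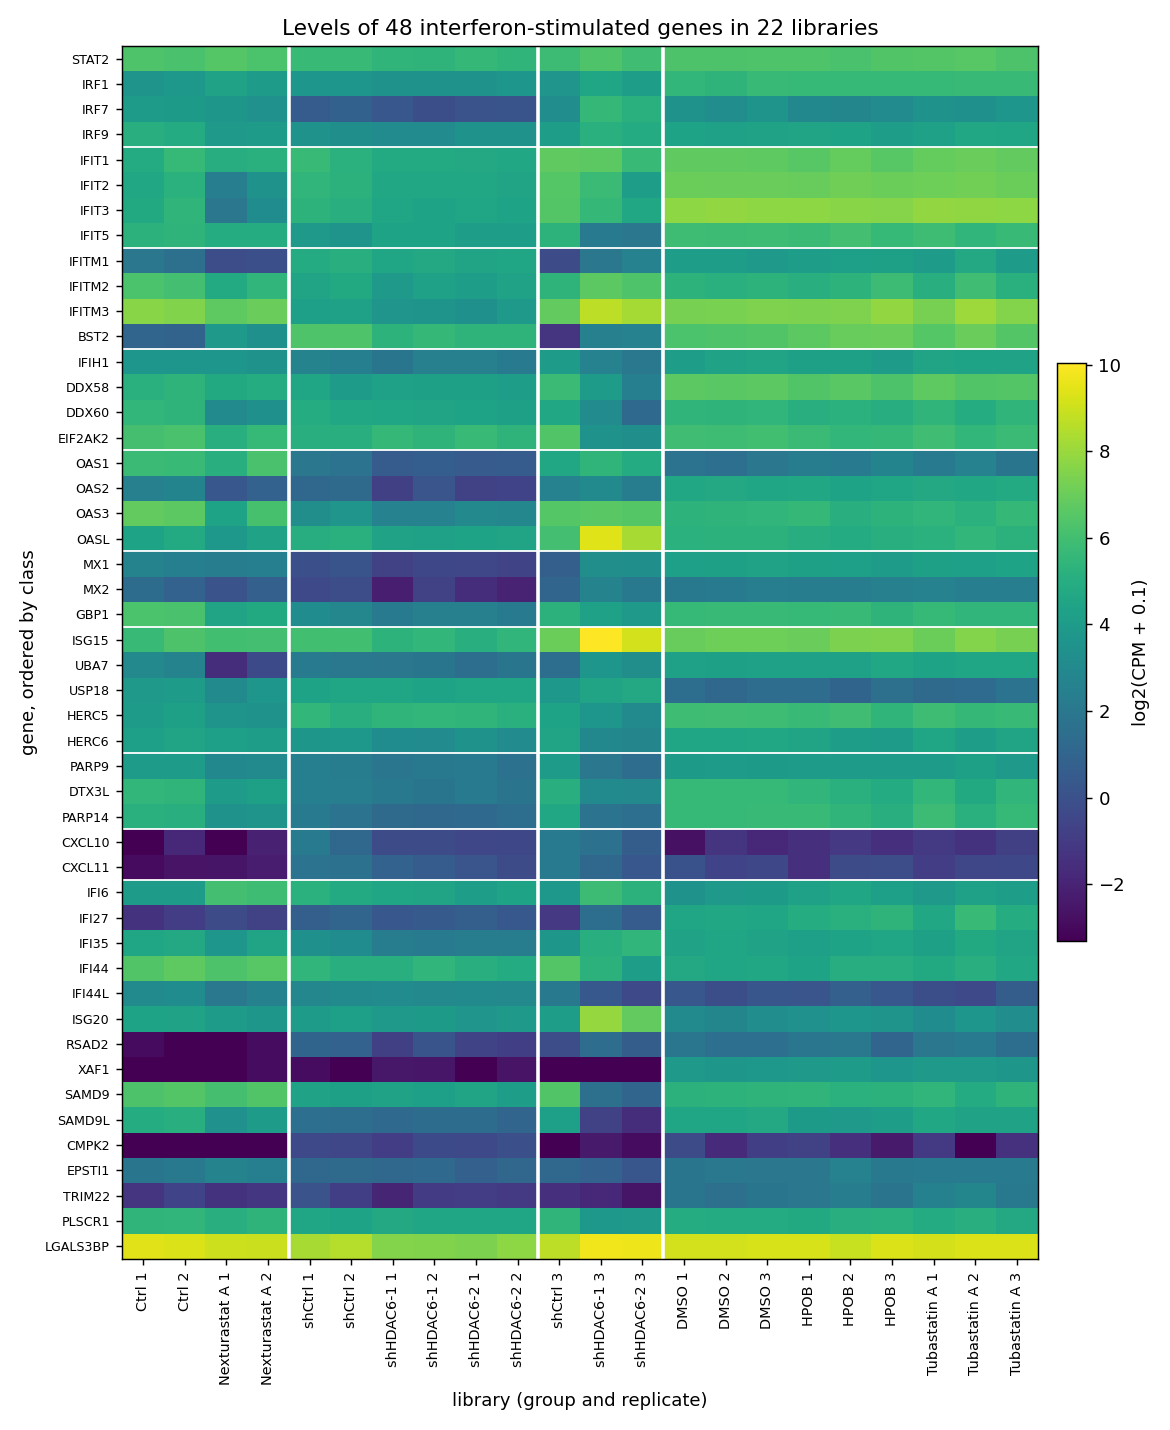
Level of each of the 48 genes (rows, grouped by role) in each of the 22 libraries (columns), as log2(CPM + 0.1), with white lines between experiment 1, hairpin replicates 1 and 2, hairpin replicate 3 and experiment 3. The summed level was 1181 to 1187 CPM in the first 2 shCtrl libraries and 2479 to 2581 CPM in the DMSO libraries of experiment 3.

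The transcription factors differed between stocks by unequal amounts. IRF7, which drives the later wave of interferon production, stood at 16.5 and 15.2 CPM in Ctrl, 11.5, 9.10 and 12.1 CPM in DMSO, 1.36 and 1.66 CPM in shCtrl replicates 1 and 2 and 9.16 CPM in shCtrl replicate 3. The first 2 shCtrl libraries were below all the others. IRF9 was 33.2 and 29.6 CPM in Ctrl, 20.1 to 21.5 CPM in DMSO and 10.9 and 9.88 CPM in shCtrl replicates 1 and 2, an order with no overlap. IRF1, an interferon-gamma-responsive factor, ranged from 11.9 to 13.9 CPM over Ctrl and all 3 shCtrl libraries. With DMSO it was 40.9 to 52.5 CPM. STAT2 was 83.1 and 72.5 CPM in Ctrl, 79.2 to 80.8 CPM in DMSO and 51.9 and 52.7 CPM in shCtrl replicates 1 and 2. Against Ctrl, IRF1 was higher in DMSO by 1.84 on the log2 scale (SE 0.13, edgeR adjusted p = 4.98e-11), while IRF9 (-0.61) and IRF7 (-0.56) were lower and STAT2 (0.03, SE 0.08, adjusted p = 0.815) was not called. In shCtrl replicates 1 and 2 against Ctrl, IRF7 (-3.55, SE 0.20), IRF9 (-1.76) and STAT2 (-0.74) were lower, and IRF1 was not called (-0.17, adjusted p = 0.263). Both comparisons share the Ctrl libraries.

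**Figure D2:**
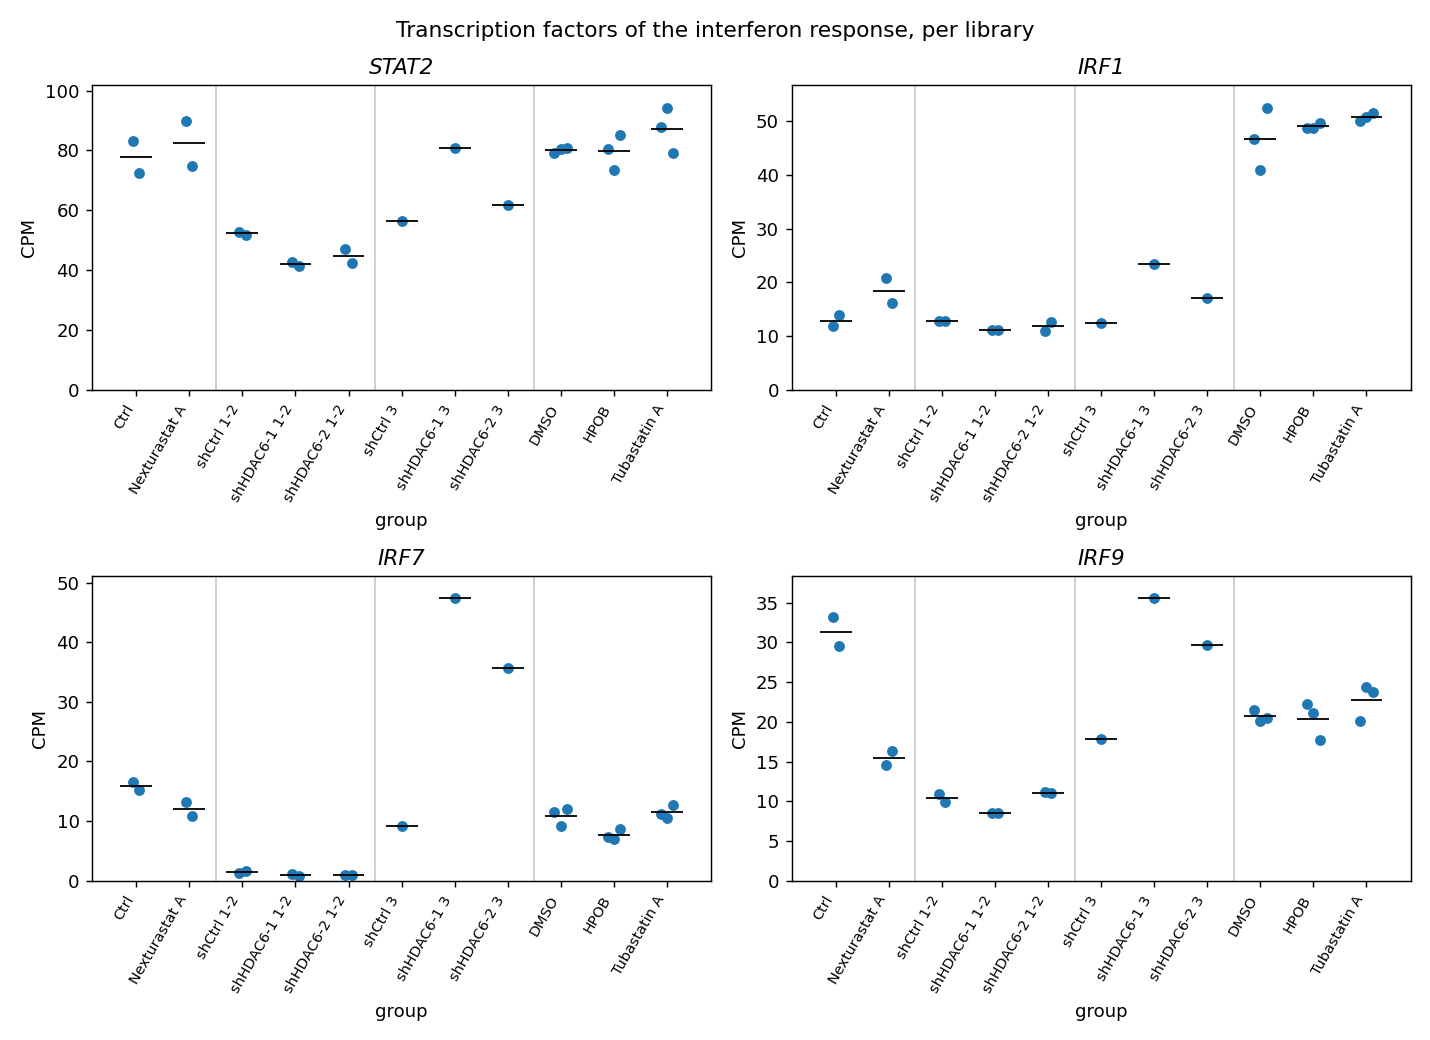
CPM of STAT2, IRF1, IRF7 and IRF9 in every library (points), with a line at each group's mean. IRF1 lies at 40.9 to 52.5 CPM in the DMSO libraries and at 11.9 and 13.9 CPM in Ctrl, and IRF7 is under 2 CPM in hairpin replicates 1 and 2 of all 3 hairpins.

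Several effectors that were at 0 or under 2 CPM in Ctrl were higher in DMSO. XAF1, a pro-apoptotic partner of XIAP, had 0 counts in both Ctrl libraries and 14.6, 13.5 and 14.0 CPM in DMSO. With 3 counts over the Ctrl group as the floor, that is at least 569.6-fold higher. Such bounds, and counting intervals, rest on pooled counts and leave out the spread between libraries. RSAD2 (viperin) had 2 counts in Ctrl, and its DMSO libraries lay at 2.82 to 3.66 CPM, a ratio of 191 with a 95% counting interval of 52.3 to 1580. BST2 (tetherin, which holds budding viruses at the cell surface) was 1.93 and 1.79 CPM in Ctrl and 75.3, 82.8 and 85.1 CPM in DMSO, a log2 fold change of 5.43 (SE 0.13, edgeR adjusted p = 1.9e-18). IFI27, a mitochondrial protein, differed by 6.05, CXCL11 by 3.75 and TRIM22 by 2.95. CMPK2, a mitochondrial nucleotide kinase, had 0 counts in Ctrl while DMSO held 0.214 to 0.760 CPM, at least 19.2-fold higher. Other genes ran the other way. OAS1, which makes the 2′-5′ oligoadenylate that activates RNase L, was 55.8 and 52.5 CPM in Ctrl and 3.31, 2.86 and 3.87 CPM in DMSO (log2 fold change -4.04, SE 0.13). IFI44L (-3.07), USP18, which removes ISG15 (-2.59), IFI44 (-1.94), the exonuclease ISG20 (-1.37) and OAS3 (-1.36) were lower in DMSO as well. In all, 23 members were higher and 16 lower in DMSO than in Ctrl, at a background of 29.1% of 18892 genes higher and 31.1% lower, 60.2% in all. The median member differed by 0.36 and the median of all genes by 0.00.

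In shCtrl replicates 1 and 2 against Ctrl, 11 members were higher and 29 lower, with backgrounds of 40.8% and 33.2% of all genes, 74% together. The median member differed by -0.94, against 0.18 over all genes. The lowest were OAS1 (-4.09), SAMD9L (-3.67), IRF7, IFITM3 (-3.52), OAS3 (-3.45) and GBP1 (-3.36). IFITM3, which blocks viral fusion in endosomes, was 205 and 185 CPM in Ctrl and 18.4 and 19.6 CPM in these libraries. PARP14 (-3.34) and DTX3L (-3.26), an ADP-ribosyltransferase and a ubiquitin ligase that acts with PARP9, were next. Against that direction, CXCL11 (5.80), BST2 (5.28), CXCL10 (4.83), IFITM1 (3.05) and IFI27 (2.12) were higher. RSAD2 had a count ratio of 109 (95% counting interval 29.9 to 909), and CMPK2 was at least 26.1-fold higher. BST2 stood at 81.6 and 80.6 CPM in shCtrl replicates 1 and 2 and at 0.308 CPM in shCtrl replicate 3. Of the genes upstream, IRF8, a lymphoid and myeloid member of the same factor family, was 36.6 and 36.7 CPM in shCtrl replicates 1 and 2 and 0 in both Ctrl libraries, and the DNA sensor cGAS (symbol MB21D1) was lower by 4.75. Of 44 pathway genes tested, 8 were higher and 28 lower in these shCtrl libraries (40.8% and 33.2% of all genes). In DMSO, 13 were higher and 20 lower (29.1% and 31.1% of all genes).

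With Nexturastat A, IRF9 and 20 effectors fell and BST2 and IFI6 rose. Of 43 members tested, 21 were lower and 2 higher than in Ctrl, where 15.5% of all 16678 genes tested were lower and 21.1% higher, 36.6% in all. The median log2 fold change was -0.61 over the members and 0.03 over all genes. Calls were uneven within roles: the ISG15-activating enzyme was called and ISG15 was not, and IFIT2 and IFIT3 were called and IFIT1 was not. Differences between genes were not tested. Among the transcription factors 1 of 4 was called.

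IRF9 (chr14:24161053-24166565), the DNA-binding part of the STAT2 complex, stood at 33.2 and 29.6 CPM in Ctrl and at 14.6 and 16.3 CPM with Nexturastat A. The groups did not overlap, and the log2 fold change was -1.11 (SE 0.16, edgeR adjusted p = 0.00356). STAT2 stood at 83.1 and 72.5 CPM against 89.8 and 74.9 CPM, a difference of -0.01 with a 95% interval of -0.34 to 0.33. IRF7 was 16.5 and 15.2 CPM against 13.2 and 10.8 CPM (-0.49, SE 0.18, adjusted p = 0.0734), and IRF1 was 11.9 and 13.9 CPM against 20.8 and 16.1 CPM (0.43, SE 0.20, adjusted p = 0.128). For both, the libraries of the 2 groups did not overlap, yet neither was called. Each became called when 1 treated library was left out: IRF7 at -0.63 without Nexturastat A replicate 1, and IRF1 at 0.59 without replicate 2. Exons of C5orf56 overlap those of IRF1 on the other strand, and whether the counting used strand is not given, so their reads cannot be told apart. The same limit holds, in every comparison, for IFIT2 with LIPA and EIF2AK2 with GPATCH11. It also holds for PARP9 with DTX3L and RSAD2 with CMPK2, which are members on both sides.

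Within the ISG15 system the activating enzyme differed most. UBA7 (chr3:49805207-49813946), the E1 enzyme that charges ISG15, stood at 7.66 and 6.29 CPM in Ctrl and at 0.241 and 0.691 CPM with Nexturastat A. Both treated libraries lay far below both controls, and the log2 fold change of -3.98 (SE 0.46, edgeR adjusted p = 0.00186) was the lowest among the 43 members tested. ISG15 itself was 53.1 and 78.1 CPM against 64.1 and 65.8 CPM, the groups overlapping, with a difference of -0.11 and a 95% interval of -0.56 to 0.35. HERC5, the ligase that attaches ISG15, was lower (-0.73), and the protease USP18 (-0.61, adjusted p = 0.0918) and HERC6 (-0.27) were not called.

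The IFIT proteins bind foreign RNA ends, and 3 of the 4 were lower. IFIT3 (chr10:89327894-89340971) was 28.0 and 43.3 CPM in Ctrl and 3.83 and 9.01 CPM with Nexturastat A (-2.56, SE 0.49, edgeR adjusted p = 0.0173). IFIT2 was 24.5 and 37.3 CPM against 5.17 and 11.5 CPM (-1.98, SE 0.44, adjusted p = 0.0214). Its neighbour IFIT1 was 29.2 and 48.7 CPM against 31.3 and 36.1 CPM, inside the control range, with a difference of -0.30 and a 95% interval of -0.88 to 0.29, which reaches that of IFIT2 (-3.09 to -0.88). IFIT5 was lower by 0.46. The 4 genes lie side by side on chromosome 10 within chr10:89283694-89421001, and the promoters printed above show the ISRE core in IFIT1 as well as in IFIT3. IFIT2 was not called without Ctrl replicate 2 (adjusted p = 0.0709).

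DDX60, a helicase cofactor of RNA sensing, was 45.1 and 41.1 CPM in Ctrl and 8.34 and 10.2 CPM with Nexturastat A (-2.30, SE 0.17, edgeR adjusted p = 0.000516). The sensor RIG-I (symbol DDX58) was lower by 0.49 and the kinase PKR (EIF2AK2) by 0.86, while MDA5 (IFIH1) was not called (-0.20). Within the OAS enzymes only OAS2 was called, at 5.58 and 6.32 CPM against 1.12 and 1.72 CPM (-2.15, SE 0.30, adjusted p = 0.0033). OAS3 was 112 and 101 CPM against 21.1 and 70.8 CPM. Both treated libraries were lower, but they lay far from each other and the gene was not called (-1.29, adjusted p = 0.183). OAS1 was 55.8 and 52.5 CPM against 33.9 and 73.4 CPM, 1 treated library below and 1 above the controls.

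Of the membrane proteins, IFITM1 was 3.89 and 2.94 CPM in Ctrl and 0.776 and 0.876 CPM with Nexturastat A (-2.13, SE 0.32, edgeR adjusted p = 0.00403), and IFITM2 (-1.05) and IFITM3 (-0.85) were lower too. These genes are near-identical in sequence or overlap in exons, so reads may be split between them. BST2 (chr19:17402939-17405648) moved the other way, from 1.93 and 1.79 CPM to 14.6 and 10.5 CPM, a log2 fold change of 2.67 (SE 0.25, adjusted p = 0.00102). IFI6, a mitochondrial and endoplasmic reticulum protein, was also higher, at 16.8 and 15.9 CPM against 67.0 and 58.1 CPM (1.84, SE 0.15, adjusted p = 0.000603). No other member was called higher. PARP14 (-1.70), GBP1 (-1.66), DTX3L (-1.41), SAMD9L (-1.30), PARP9 (-1.17), IFI44L (-0.88), ISG20 (-0.61) and LGALS3BP (-0.48) completed the called genes. The 5 members not tested, CXCL10, CXCL11, RSAD2, XAF1 and CMPK2, were under 0.2 CPM in all 4 libraries. An ISRE core was present in 13 of 17 matched promoters of lower genes (76.5%), in both of the higher genes and in 10 of 15 of the genes not called (66.7%).

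**Figure D3:**
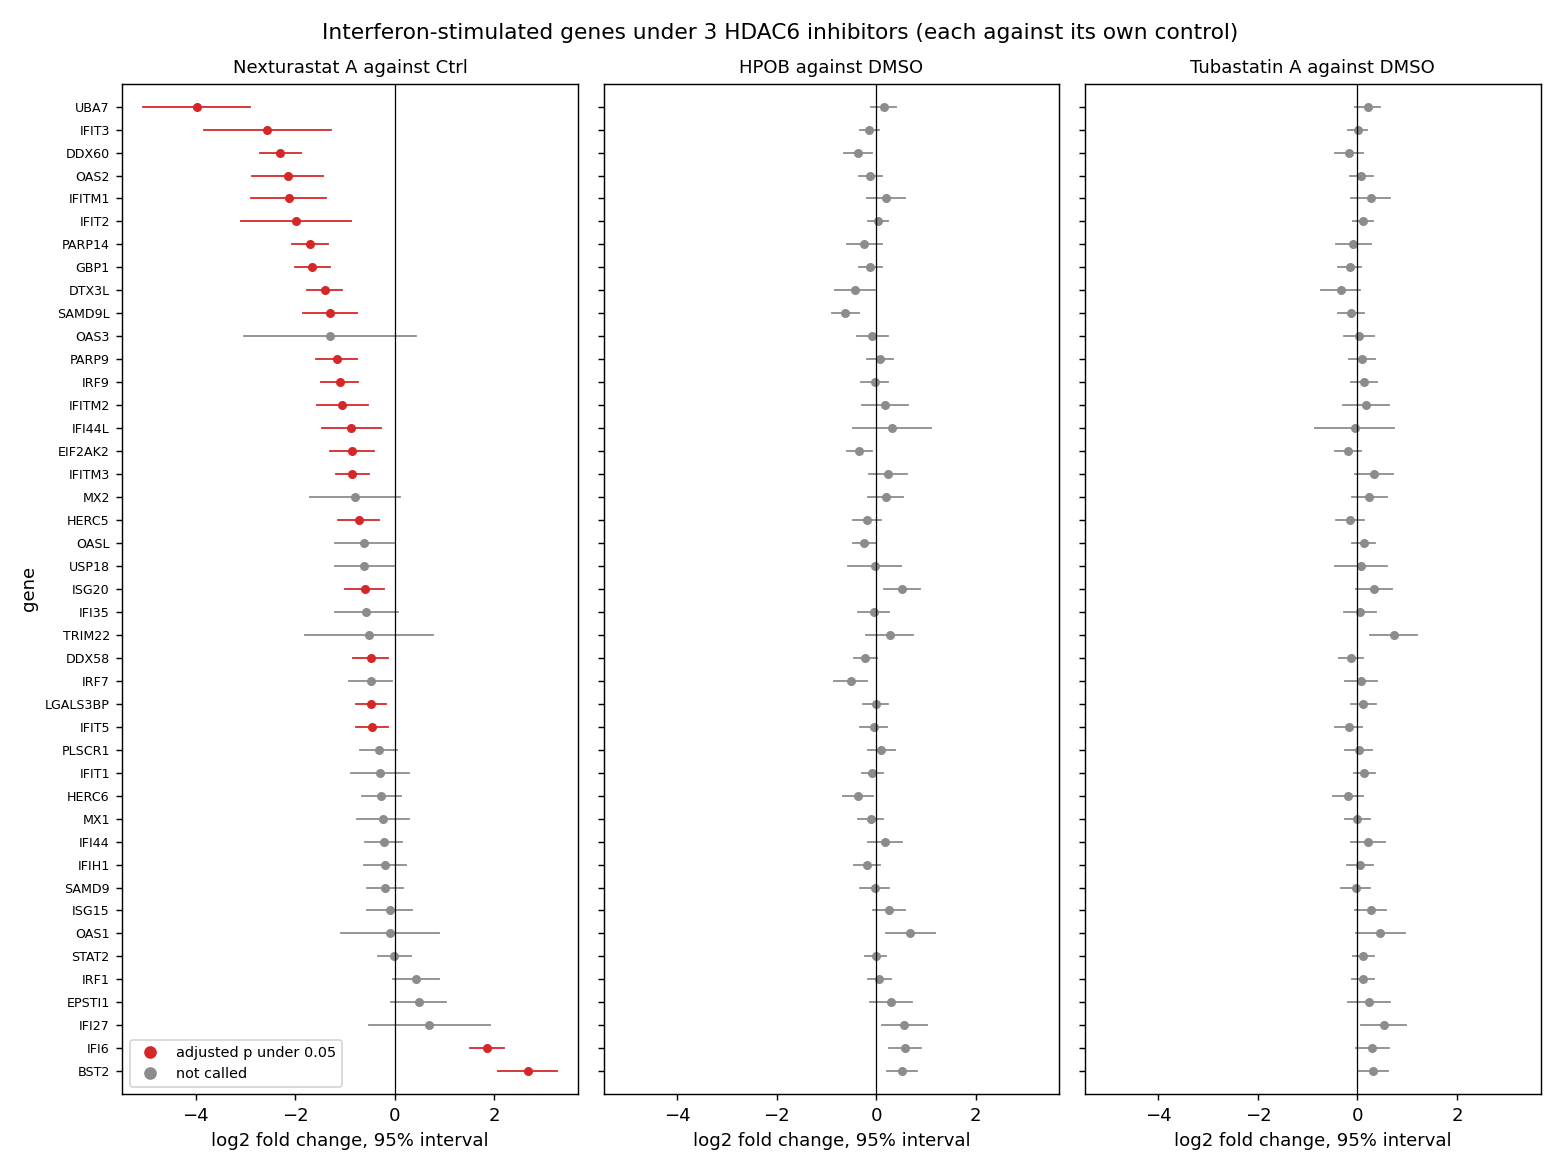
Log2 fold change with its 95% interval (horizontal axis) for the 43 members tested with Nexturastat A (rows, in the same order in each panel), with Nexturastat A, HPOB and Tubastatin A, red marking an edgeR adjusted p under 0.05. In the first panel 21 genes are called lower and BST2 and IFI6 higher, and no gene is called in the other 2.

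Of 40 upstream genes tested with Nexturastat A, 10 were lower and 2 higher, where 15.5% and 21.1% of all genes were. STAT5A (-2.32), the endosomal RNA sensor TLR3 (-1.84) and the RNA sensor DHX58 (-1.59) were the lowest, and the interferon-gamma receptor chain IFNGR1 (0.59) was higher. No interferon gene passed the filter on low counts, and the 21 held 10 counts in total with the drug. Without Ctrl replicate 1, or without Ctrl replicate 2, 14 members were called in place of 23, while calls over all genes fell from 36.6% to 10.2% and 11%. Without Nexturastat A replicate 2 it was 32 members, at 51.9% of all genes. Against the 3 DMSO libraries of experiment 3 in place of Ctrl, 33 members were lower and 8 higher, where 68.9% of all genes were called, and BST2 was then lower by 2.75. Markers of other cell types were low but moved: the summed level of 9 leukocyte markers went from 2.42 to 2.86 CPM in Ctrl to 16.0 to 21.7 CPM, of which ITGAX made 13.9 to 19.6 CPM, that of 6 fibroblast markers from 10.8 to 13.4 CPM to 45.0 to 45.3 CPM and that of 4 endothelial markers from 17.5 to 17.8 CPM to 35.7 to 40.2 CPM. CLEC4C, which marks the plasmacytoid dendritic cell, was at 0 in all 4 libraries, and their part in the result was not tested.

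The hairpins asked what HDAC6 knockdown does to the same genes. HDAC6 (chrX:48801377-48824982) stood at 47.8 and 54.6 CPM in shCtrl replicates 1 and 2, at 12.6 and 11.8 CPM with shHDAC6-1 and at 12.2 and 13.6 CPM with shHDAC6-2. The log2 fold changes were -1.99 (SE 0.14) and -1.90 (SE 0.14), both called. In replicate 3 it was 24.9, 9.20 and 11.6 CPM. With Nexturastat A the HDAC6 message was not called (-0.19).

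In replicates 1 and 2, CXCL10, CXCL11, OAS1, OAS2, OASL, IFIT1 to IFIT3 and ISG15 were among the genes lower with both hairpins than with shCtrl. IFIT5 and EIF2AK2 were higher. Of 47 members tested, 20 were lower and 2 higher with shHDAC6-1 (15.2% and 15.3% of 17702 genes in the background, 30.5% in all), with a median of -0.46 against -0.02 over all genes. With shHDAC6-2, 18 were lower and 2 higher (13.2% and 14.4%, 27.6% in all), with a median of -0.36 against 0.00. In all, 16 members were lower with both hairpins, where 10.7% of all genes were, and IFIT5 and EIF2AK2 were higher with both, where 11.3% were. The 2 comparisons share the shCtrl libraries. Tested against each other, the hairpins differed in 0 of 47 members by edgeR and in 0% of all genes. An unadjusted p under 0.05 was found for 2 members and for 6.25% of all genes.

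No transcription factor was called with either hairpin. STAT2 was 52.7 and 51.9 CPM in shCtrl, 42.8 and 41.3 CPM with shHDAC6-1 and 47.2 and 42.5 CPM with shHDAC6-2, log2 differences of -0.24 and -0.13. IRF9 was 10.9 and 9.88 CPM in shCtrl, 8.56 and 8.53 CPM with shHDAC6-1 (-0.21) and 11.2 and 11 CPM with shHDAC6-2 (0.19). IRF1 lay between 11 and 12.9 CPM in all 6 libraries (-0.12 and -0.02). IRF7 was 1.36 and 1.66 CPM in shCtrl and 0.840 to 1.12 CPM with the hairpins (-0.55 and -0.51, adjusted p = 0.24 and 0.285 by edgeR), lower in 4 of 4 knockdown libraries but with a wide error at this level.

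The chemokine CXCL10 (chr4:76021117-76023497), which draws T cells, had the largest difference. It was 4.38 and 2.10 CPM in shCtrl, 0.746 and 0.725 CPM with shHDAC6-1 and 0.630 and 0.653 CPM with shHDAC6-2. All 4 knockdown libraries were below both controls, and the log2 fold changes were -2.05 (SE 0.35, edgeR adjusted p = 0.000118) and -2.23 (SE 0.35, adjusted p = 4.86e-05). Its relative CXCL11 was 3.30 and 3.14 CPM in shCtrl, 1.77 and 1.36 CPM with shHDAC6-1 (-0.97, SE 0.28) and 1.04 and 0.751 CPM with shHDAC6-2 (-1.75, SE 0.29). All 4 OAS genes were lower with shHDAC6-1 and OAS1, OAS2 and OASL with shHDAC6-2. OAS2 was 2.16 and 2.32 CPM in shCtrl, 0.471 and 1.07 CPM with shHDAC6-1 (-1.46, SE 0.37) and 0.504 and 0.555 CPM with shHDAC6-2 (-1.98, SE 0.38). OAS1 was 3.87 and 3.25 CPM in shCtrl and 1.31 to 1.49 CPM in the 4 knockdown libraries (-1.24 and -1.30, SE 0.27 and 0.26). RSAD2 was 1.88 and 1.73 CPM in shCtrl and 0.457 to 0.992 CPM with the hairpins (-1.21 and -1.71). MX2, an inhibitor of nuclear import of viruses, was called with shHDAC6-2 (-1.84) but lost its call when any 1 library of shCtrl or shHDAC6-2 was left out.

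BST2, ISG15 and 9 further genes were lower with both hairpins. BST2 was 81.6 and 80.6 CPM in shCtrl, 39.2 and 47.6 CPM with shHDAC6-1 (-0.82, SE 0.12, edgeR adjusted p = 2.85e-05) and 40.7 and 40.7 CPM with shHDAC6-2 (-0.90, SE 0.12, adjusted p = 1.11e-05). ISG15 was 63.8 and 63.5 CPM in shCtrl and 32.6 to 46.3 CPM in the knockdown libraries (-0.48 and -0.64), and its enzyme UBA7 was not called (-0.11 and -0.31). IFI35 (-1.0 and -0.92), LGALS3BP (-0.80 and -0.72), OASL (-0.66 and -0.52), IFIT3 (-0.65 and -0.63), IFIT2 (-0.63 and -0.72), GBP1 (-0.62 and -0.63), IFITM3 (-0.57 and -0.52), IFIT1 (-0.53 and -0.67) and IFI6 (-0.46 and -0.64) were lower with both. OAS3 (-0.78), PARP14 (-0.73), HERC6 (-0.55) and IFITM2 (-0.44) were called with shHDAC6-1 alone and IFITM1 (-0.38) with shHDAC6-2 alone, a difference that was not called between the hairpins. IFIT5, the family member that binds single-stranded RNA with a 5′ phosphate, went up from 14.3 and 11.8 CPM to 21.5 and 21.1 CPM with shHDAC6-1 (0.78, SE 0.14) and 18.0 and 17.1 CPM with shHDAC6-2 (0.52, SE 0.14). EIF2AK2, the kinase that halts translation on double-stranded RNA, rose from 33.9 and 33.2 CPM to 47.3 and 40.8 CPM and to 52.5 and 41.4 CPM (0.47 and 0.58).

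Upstream, 8 of 42 pathway genes tested were higher and 7 lower with shHDAC6-1, where 15.3% and 15.2% of all genes were. With shHDAC6-2, 7 were higher and 6 lower, where 14.4% and 13.2% of all genes were. The phosphatase PTPN11 (0.77 and 0.88) and the type I receptor chain IFNAR1 (0.72 and 0.82) were higher with both hairpins, and the kinase IKBKE (-0.82 and -0.64) was lower with both. IFNL1, a type III interferon and the only ligand tested, was 0.493 and 0.986 CPM in shCtrl and 0.275 and 0.0763 CPM with shHDAC6-1 (-2.0, SE 0.68, edgeR adjusted p = 0.0289). With shHDAC6-2 it was 0.283 and 0.277 CPM and was not called (-1.31, SE 0.63, edgeR adjusted p = 0.132). Over all genes, the fold change with shHDAC6-1 had a rank correlation of -0.379 with the GC content of the gene's exons, and -0.269 with shHDAC6-2, as a description across genes. With GC and length as offsets in the fit, 27 and 28 members were called, at 42.1% and 41.6% of all genes. Without shHDAC6-1 replicate 1, 11 members were called with that hairpin, at 19.3% of all genes. When the 3 replicate 3 libraries were added to the edgeR fit, no gene of 17653 was called with either hairpin, members included, and 0 and 3 members had an unadjusted p under 0.05.

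Replicate 3 gave another picture of the same hairpins, with 1 library each and so no replicate check. Of 46 members with enough counts, 14 were 2-fold or more higher with both hairpins and 15 lower with both, where 21.5% and 32.7% of 16978 genes were. For shHDAC6-1 alone the numbers were 16 higher and 15 lower (26.1% and 36.4% of all genes, 62.5% together), and for shHDAC6-2 alone 14 and 22 (24.6% and 35.8%, 60.3% together). ISG15 was 132 CPM in shCtrl replicate 3, 1049 CPM with shHDAC6-1 and 548 CPM with shHDAC6-2, log2 ratios of 2.99 and 2.05. OASL, an OAS relative that binds RIG-I, was 66.5, 666 and 315 CPM in the same order. ISG20 was 17.5, 241 and 112 CPM and BST2 was 0.308, 5.56 and 5.98 CPM. IRF7 was 9.16, 47.4 and 35.7 CPM (log2 ratios 2.37 and 1.96), the only transcription factor past 2-fold with both hairpins. STAT2 was 56.3, 80.9 and 61.9 CPM, IRF1 12.4, 23.5 and 17.1 CPM and IRF9 17.8, 35.6 and 29.7 CPM. The 4 factors were higher in both knockdown libraries than in shCtrl replicate 3, and their place within their GC bin is given below. CDKN2A was at 0 in shCtrl replicate 3 and at 7.11 and 24.1 CPM in the 2 knockdown libraries. In shCtrl replicates 1 and 2, which held CDKN2A, BST2 averaged 81.1 CPM. The part of cell stock in the replicate 3 ratios was not tested.

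Other roles were lower in the same libraries. All 4 RNA sensors and kinases were 2-fold or more lower with both hairpins, with EIF2AK2 at 84.4, 11.2 and 9.88 CPM, and all 4 have a low GC content, 38.7% to 43.3%. PARP9, DTX3L and PARP14 were lower as well, with log2 ratios from -1.98 to -3.15. SAMD9, a growth-restricting antiviral factor, was 86.3 CPM in shCtrl replicate 3 and 2.91 and 1.94 CPM in the knockdown libraries, and its neighbour SAMD9L was 18.8, 0.512 and 0.238 CPM. The type III interferons were higher. IFNL1 had 28 counts (0.432 CPM) in shCtrl replicate 3, 1136 counts (13.2 CPM) with shHDAC6-1 and 378 counts (6.42 CPM) with shHDAC6-2. The 21 interferon genes together held 43, 1488 and 451 counts. IFNL2 and IFNL3 are near-identical, so their reads may be split.

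The split into higher and lower members ran with base composition in these libraries. The median log2 ratio over all genes with shHDAC6-1 was -2.63, -1.35, -0.12, 0.78 and 1.31 over 5 bins of genes of near-equal size, from the lowest exonic GC content to the highest, and with shHDAC6-2 it was -2.65, -1.29, -0.05, 0.72 and 1.17. Across all genes the rank correlation with GC was 0.737 and 0.717, and across the 46 members it was 0.794 and 0.832, all members sharing the same 2 libraries. SAMD9 has 36.0% GC and ISG15 has 63.4%. Measured against the median of its own GC bin, ISG15 stood at 1.68 and 0.89, OASL at 3.45 and 2.29, and SAMD9 at -2.25 and -2.82. Of the sensors and kinases, EIF2AK2 stood at -0.28 and -0.44, IFIH1 at -0.13 and -0.74, DDX58 at 0.86 and -0.73 and DDX60 at 1.11 and -0.78, so that the last 2 were above their bin with shHDAC6-1 and below it with shHDAC6-2. Of the factors, IRF7 stood at 1.06 and 0.79, STAT2 at 0.65 and 0.18, IRF9 at 0.22 and 0.01 and IRF1 at 0.13 and -0.26. In all, 25 of 46 members lay above their bin with both hairpins and 11 below it. This count was not set against that of all genes, and both ratios share the same shCtrl library. CXCL10, of 37.5% GC, was lower with both hairpins (-0.54 and -1.59) and above the median of its bin by 2.09 and 1.06. The part of base composition in the other ratios was not tested.

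**Figure D4:**
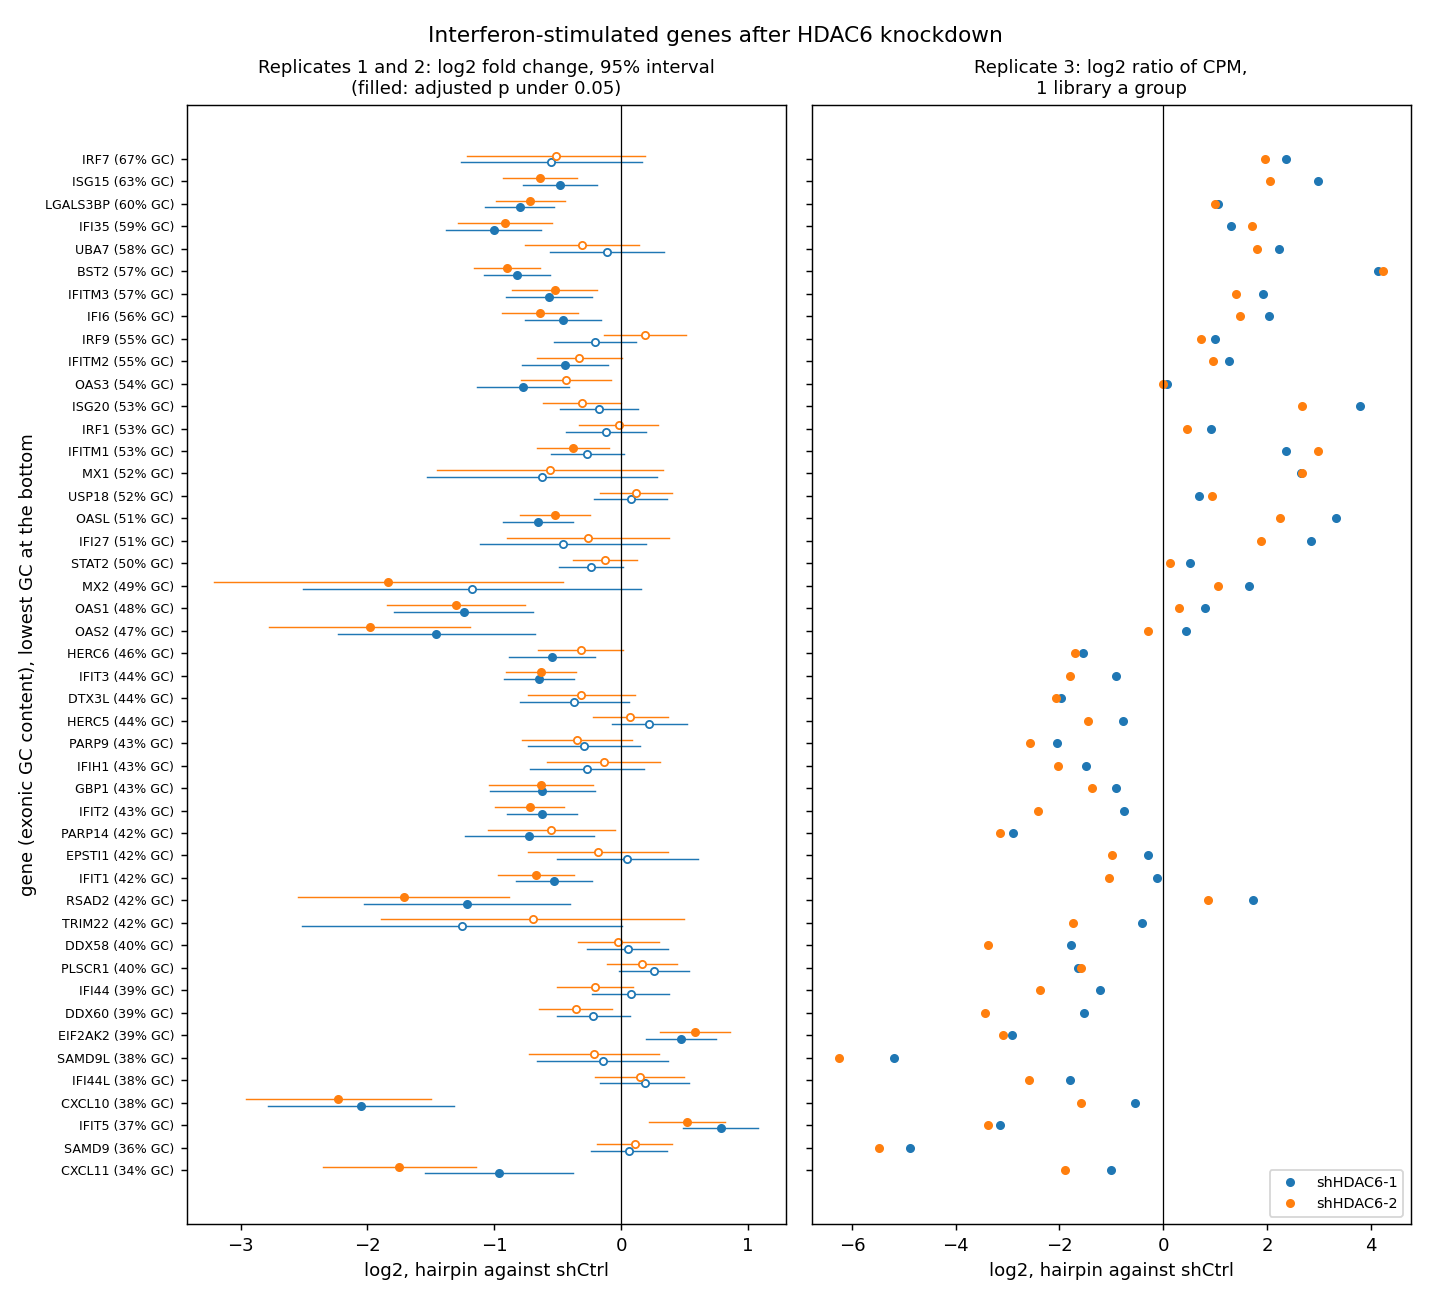
Log2 fold changes of 46 members ordered by the GC content of their exons, with both hairpins in replicates 1 and 2 (left, 95% intervals, filled points called) and the log2 ratio to shCtrl in replicate 3 (right, 1 library each, no interval). On the right the ratios run from -6.25 for SAMD9L to 4.24 for BST2, and on the left they lie between -2.23 and 0.78.

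HPOB and Tubastatin A were tested against the same 3 DMSO libraries, and no member was called with either drug. With HPOB, edgeR called 0 of 48 members, where 0.0261% of 15338 genes were called. Its unadjusted p was under 0.05 for 11 members and for 10.4% of all genes. DESeq2 called 1, SAMD9L, and 0.782% of all genes. With Tubastatin A, edgeR and DESeq2 both called 0 of 48, where edgeR called 0% of all genes and DESeq2 0.15%. In edgeR, 3 members and 4.94% of all genes had an unadjusted p under 0.05. The median member differed by -0.02 with HPOB and 0.08 with Tubastatin A, against 0.01 for all genes in both cases. A median 95% interval reached 0.30 to either side, and intervals of 6 members with HPOB and 4 with Tubastatin A still held a 2-fold change.

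No transcription factor was called with HPOB or Tubastatin A, and IRF7 with HPOB was the one whose groups did not overlap. STAT2 was 79.2, 80.3 and 80.8 CPM with DMSO, 80.5, 73.6 and 85.1 CPM with HPOB and 87.9, 94.3 and 79.1 CPM with Tubastatin A. IRF1 was 40.9 to 52.5 CPM with DMSO, 48.7 to 49.6 CPM with HPOB and 50.1 to 51.6 CPM with Tubastatin A. IRF9 was 20.1 to 21.5, 17.7 to 22.3 and 20.1 to 24.5 CPM in that order, a difference of -0.03 with HPOB (95% interval -0.30 to 0.24) where Nexturastat A gave -1.11. IRF7 was 11.5, 9.10 and 12.1 CPM with DMSO and 7.32, 7.01 and 8.60 CPM with HPOB. All 3 HPOB libraries were below all 3 DMSO libraries, but the gene was not called (-0.51, SE 0.15, edgeR adjusted p = 0.351). With Tubastatin A it was 11.1, 10.5 and 12.7 CPM (0.07).

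No effector was called by edgeR either. The largest differences were those of CMPK2 with both drugs (-0.79, SE 0.86, and -1.15, SE 0.88), a gene at 0 to 0.760 CPM in these 9 libraries. CXCL10, at 0.0543 to 0.486 CPM, differed by 0.58 (SE 0.65) and 1.0 (SE 0.63). At higher levels, SAMD9L was 22.6, 23.0 and 26.6 CPM with DMSO and 15.5, 14.6 and 17.0 CPM with HPOB (-0.62, SE 0.12, edgeR adjusted p = 0.169, DESeq2 adjusted p = 0.00293). BST2 was 75.3, 82.8 and 85.1 CPM with DMSO, 101, 123 and 125 CPM with HPOB (0.52, SE 0.14, edgeR adjusted p = 0.283) and 90.8, 124 and 86.6 CPM with Tubastatin A (0.31). IFI6 was 11.6, 14.5 and 15.5 CPM with DMSO and 20.1, 23.7 and 18.7 CPM with HPOB (0.58), the groups not overlapping. OAS1 was 2.86 to 3.87 CPM with DMSO, 4.59 to 6.52 CPM with HPOB (0.69) and 3.56 to 5.96 CPM with Tubastatin A (0.46). TRIM22 was 2.92 to 3.59 CPM with DMSO and 4.16 to 6.81 CPM with Tubastatin A (0.73, SE 0.22, adjusted p = 0.857). The libraries HPOB replicate 3 and Tubastatin A replicate 2 stood apart, with AXL at 834 and 682 CPM against 1377 to 1621 CPM in the other 7, and IFITM3 at 232 and 271 CPM against 155 to 187 CPM. Without both, 0 members were called with either drug, where edgeR called 0.129% of all genes with HPOB and 0% with Tubastatin A.

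The effect of Nexturastat A minus that of Tubastatin A was tested as an interaction, each against the vehicle of its own experiment. The drugs' doses were 7.65 µM and not given, and the stocks differed as described above. Of 48 members, 16 were lower and 2 higher, with backgrounds of 8.46% and 10.6% of 17083 genes, 19.1% in all. UBA7 differed by -4.12 (SE 0.34, edgeR adjusted p = 1.51e-06), and its levels with Tubastatin A were 21.6, 23.8 and 22.8 CPM against 19.6, 19.5 and 19.9 CPM with DMSO. IFIT3 (-2.51), IFITM1 (-2.34), OAS2 (-2.17), DDX60 (-2.08) and IFIT2 (-2.03) followed, and BST2 (2.42) and IFI6 (1.60) were the 2 higher genes. IRF9 was the 1 transcription factor called (-1.18, SE 0.20, adjusted p = 0.000802), and STAT2, IRF1 and IRF7 were not (-0.06, 0.37 and -0.50).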

How the data were processed

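The deposited files hold raw counts of reads per gene symbol, one file per library. Per the submitters' processing notes, the tools were Trim Galore 0.6.7, STAR 2.7.9a, featureCounts 2.0.3 and DESeq2 1.30.1, with the GRCh38 genome. The gene annotation, the strand setting and the handling of reads that match several genes were settings not given in the sources used here. From the deposited counts, CPM were computed on library totals. Differences were tested with edgeR 4.0.16 (R 4.3.3), by its quasi-likelihood test with TMM scaling and filterByExpr (minimum count 10, minimum total 15). P-values were adjusted over all genes tested. The standard error is the log2 fold change divided by the square root of F. Replicates 1 and 2 of the hairpins were fitted together, without replicate 3, whose libraries are given as ratios (0.5 added, at least 10 counts in 1 library of the pair). Fold bounds against groups at 0 use 3 counts over the group. These bounds and the counting intervals take each count as independent. Most low counts of CXCL10, XAF1 and CMPK2 were even numbers. The bounds and intervals are too tight if 1 fragment gave 2 counts, which was not tested. Gene lengths and GC content come from GENCODE 29 (23899 of 26485 symbols matched), promoters from RefSeq.

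The members, roles and lists were chosen with earlier results of these data known. Named in each comparison were the 4 transcription factors and the 6 called members with the highest and the 6 with the lowest fold change. Other called members are given by fold change alone, uncalled ones by count or with values, and upstream genes by count with up to 3 in each direction. The values of 1 upstream gene are not reported here. In the fit of all 9 hairpin libraries, an alternative, same-numbered libraries had r from 0.358 to 0.974 over 9 pairs, the numbers coming from the labels. Over 18 pairs with unlike numbers r ran from -0.974 to 0.961, and replicate 3 stands apart there. Alternatives were DESeq2 1.42.0, its size factors, other filters, GC and length offsets, a replicate block, other controls and leaving out single libraries. The test was tried on simulated counts. None of 20 replicate pairs held identical values.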

Additional observations from a re-analysis of the deposited data

Results flagged for a closer look

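Nexturastat A and Tubastatin A, each against its own vehicle, had different effects on 18 members by edgeR's interaction test. Of all 17083 genes tested, 19.1% were called likewise, 8.46% lower and 10.6% higher. Lower with Nexturastat A, in log2 units, were UBA7 (-4.12), IFIT3 (-2.51), IFITM1 (-2.34), OAS2 (-2.17), DDX60 (-2.08), IFIT2 (-2.03), PARP14 (-1.56), GBP1 (-1.44), PARP9 (-1.20), IRF9 (-1.18), IFITM2 (-1.17), IFITM3 (-1.12), SAMD9L (-1.12), DTX3L (-1.01), ISG20 (-0.88) and LGALS3BP (-0.53). Higher were IFI6 (1.60) and BST2 (2.42). The 2 experiments also differ in cell stock, and the dose of Tubastatin A is not given.

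Of the 16 members lower with both hairpins in replicates 1 and 2, 9 were higher with both in replicate 3, and the 2 that were higher were lower there. Over all genes, 69.8% of 1854 lower and 68.4% of 1978 higher genes turned likewise. By this measure the share of members (56.2% of the 16) was not above that of all genes. Measured from the GC bin median, 10 of the 16 lower members (62.5%) lay above it with both hairpins, where 51.7% of 1760 lower genes did. The 2 higher members lay below it, where 49.1% of 1912 higher genes did. Differences between these shares were not tested. The log2 ratios in replicate 3 for shHDAC6-1 and shHDAC6-2 were 0.81 and 0.30 for OAS1, 1.73 and 0.87 for RSAD2, 1.31 and 1.72 for IFI35, 4.14 and 4.24 for BST2 and 1.05 and 1.01 for LGALS3BP. They were 3.32 and 2.24 for OASL, 1.92 and 1.41 for IFITM3, 2.99 and 2.05 for ISG15 and 2.05 and 1.48 for IFI6. For EIF2AK2 they were -2.91 and -3.09, and for IFIT5 -3.14 and -3.38. Against the median of its GC bin in replicate 3, LGALS3BP stood at -0.26 and -0.16, IFI35 at 0.00 and 0.55, EIF2AK2 at -0.28 and -0.44 and IFIT5 at -0.50 and -0.73. OAS1 stood at 0.94 and 0.34, RSAD2 at 3.08 and 2.16, BST2 at 3.36 and 3.52 and OASL at 3.45 and 2.29. IFITM3 stood at 1.14 and 0.68, ISG15 at 1.68 and 0.89 and IFI6 at 1.27 and 0.76. The fold changes over all genes had rank correlations with GC of -0.379 and -0.269 in replicates 1 and 2, and of 0.737 and 0.717 in replicate 3. That difference between replicate sets was not tested, since replicate 3 has 1 library per hairpin. The replicate 3 knockdown libraries held CDKN2A and shCtrl replicate 3 did not, and the part of cell stock was not tested either.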

How the results depend on the processing

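The numbers of called members were within 1.5 times the reported ones under DESeq2's size factors and without a low-count filter. DESeq2's Wald test called 1 member with HPOB in place of 0. For Nexturastat A (23 called), a mean of at least 5 CPM left 15, DMSO controls gave 41, and leaving out single libraries gave 14 to 32, with calls over all genes at 31.7%, 68.9% and 10.2% to 51.9%. Such omissions gave 11 to 22 for shHDAC6-1 (22 called), with 17.2% to 32.9% of all genes called. For shHDAC6-2 (20 called) they gave 17 to 20, with 19% to 26.9% of all genes called. The replicate block gave 26 for Nexturastat A, 22 for each hairpin and 0 for HPOB and Tubastatin A. Calls over all genes were then 39.1% for Nexturastat A, 34.8% for shHDAC6-1, 32.1% for shHDAC6-2, 0.0456% for HPOB and 0% for Tubastatin A. In these fits the libraries share only a number, with r of 0.204 in the first experiment, -0.218 to 0.548 over hairpin replicates 1 and 2 and -0.334 to 0.60 in the third. All 9 hairpin libraries gave 0 for both hairpins, and with the replicate block 0 as well, where 0% of all 17653 genes were called by edgeR, and 0 and 3 members, or 4 and 7 with the block, had an unadjusted p under 0.05. Calls under every alternative were kept by 11 of 23 members with Nexturastat A, by 14 of 18 in the interaction, by 36 of 39 and 37 of 40 between stocks, and by 0 with either hairpin, since the fit of 9 libraries called no gene. The share of all genes that kept their calls was not computed. Chosen after seeing the data, leaving out HPOB 3 and Tubastatin A 2 together gave 20 for the interaction, at 23.7% of all genes. GC and length offsets, chosen likewise, gave 22 for Nexturastat A, at 37.3% of all genes.

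Directions turned for these members, and the cause was not tested. For Nexturastat A against DMSO, the log2 values were IFI44L 2.20, IFI44 1.74, OAS1 3.94, IFI27 -5.34, ISG20 0.77, BST2 -2.75, USP18 1.99, IRF1 -1.40 and SAMD9 0.90, and OAS1 ranged from -0.78 without replicate 2 of the drug to 0.36 without its replicate 1. With all 9 libraries, shHDAC6-1 gave ISG15 2.45, IFI6 0.62, IFIT5 -0.52, IFITM2 0.82, IFITM3 1.85, OAS1 0.81, OAS3 0.18, OAS2 0.15, OASL 2.73, IFI35 0.67, LGALS3BP 0.43, RSAD2 0.19 and EIF2AK2 -0.63. With the replicate block added it gave ISG15 0.46, IFI6 0.28, IFIT5 -0.71, IFITM2 0.12, IFITM3 0.19, OASL 0.45, BST2 0.037 and EIF2AK2 -0.83. For shHDAC6-2, all 9 gave ISG15 1.53, IFI6 0.18, IFIT5 -0.80, IFITM3 1.33, OAS1 0.28, OASL 1.69, IFI35 0.99, LGALS3BP 0.38, EIF2AK2 -0.57 and MX2 0.64. With the replicate block they gave IFIT5 -0.99, IFITM1 0.50, BST2 0.021 and EIF2AK2 -0.79. IFI44, not called, was -0.22 for shHDAC6-1 with GC and length offsets and -0.23 with the block too, and IFIT1 between shCtrl and Ctrl ranged from -0.33 without Ctrl replicate 1 to 0.42 without replicate 2. Low counts kept CXCL10, CXCL11, RSAD2, XAF1 and CMPK2 out of the test with Nexturastat A.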
